A study of Mus musculus with 8 samples.

Results

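The 10 genes described here are Atf4, Atf5, Ddit3, Trib3, Chac1, Asns, Phgdh, Psat1, Psph and Cebpb, which belong to the ATF4 branch of the cellular stress response and to the synthesis of serine. They were chosen by gene symbol, as every array feature that the platform annotation assigns to one of them. That gave 14 of the 33709 features with a listed gene, and 10 of 19087 genes. All 10 genes had at least 1 feature, and no feature was filtered out. Phgdh had 3 features, Psph and Cebpb had 2 each, and the other genes had 1.

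RNA came from spleen B cells (B splenocytes) of 8 C57BL/6 mice, with 1 Cy3-labelled Agilent array per mouse. The controls were 4 wild type mice, and the other 4 mice had lymphoma and the genotype c-myc with Cdk4(R24C), a Cdk4 mutant that escapes inhibition by INK4 proteins. The sources used here give neither the promoter of c-myc, nor the ages of the mice, nor how the B cells were isolated. Slide 1 carried wild type 1 and 2 with lymphoma 1 and 2, and slide 2 carried the remaining arrays. Values are log2 intensities, shifted so that all arrays share the same 75th percentile. A gene with several features is represented by its brightest one, and a call is a Benjamini-Hochberg adjusted p under 0.05 in limma over all 33709 features.

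ATF4 is a bZIP transcription factor whose messenger RNA is translated more efficiently when kinases phosphorylate the initiation factor eIF2 under amino acid shortage, endoplasmic reticulum stress or heme deficiency. Its protein therefore can change without a change of its RNA, which is all that an array reads. Its known targets include other stress regulators (Atf5, Ddit3, Trib3, Chac1), asparagine synthetase and the enzymes that make serine from the glycolytic intermediate 3-phosphoglycerate. Serine in turn feeds glycine, one-carbon units and nucleotide synthesis in proliferating cells, lymphocytes among them.

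The array labelled wild type 1 lay nearer to the lymphomas than to the other controls. Across features it correlated at a mean of 0.963 with the lymphomas, against 0.941 with the remaining controls. Its label was kept, and whether it came from a healthy control was not tested, so each mean of the 4 controls rests in part on that label. Results that leave this array out are also given. It was chosen from these same data because it lay near the lymphomas. Leaving it out can therefore widen the group differences and narrow the spread of the controls, which favours calls. The adjusted p values of that fit do not allow for this choice, so they describe how far results depend on the array. Over all features 557 passed the threshold (1.65%), 221 higher (0.656%) and 336 lower (0.997%) in lymphoma, and without wild type 1 2317 passed (6.87%). With the scaling as deposited 158 were higher and 429 lower, so that rises made up 26.9% of the calls in place of 39.7%. The median difference of all features was 0.08. Myc averaged 15.48 ± 0.45 in wild type and 15.85 ± 0.13 in lymphoma (SD, n = 4), close to the top of the scale, and Cdk4 averaged 10.79 ± 0.73 and 11.85 ± 0.35. The difference of Cdk4 was 1.06 (limma adjusted p 0.166), and 1.36 without wild type 1 (adjusted p 0.0187).

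Of the B cell markers, 9 were measured, Cd79a, Ms4a1 and Pax5 among them. Each was above background on all 8 arrays, and 0 of the 9 passed the limma test between the groups. Markers of other cell types differed between the groups. Of 11 monocyte and macrophage markers, 6 fell in lymphoma and 0 rose, and of 7 plasma cell markers 4 fell. Over all genes 1.27% fell and 0.817% rose. Itgam, the 1 macrophage marker with a positive difference, was 1.22 higher (limma adjusted p 0.105), and 1.49 higher without wild type 1 (adjusted p 0.0142), with 2 of the 4 wild type arrays above background. The lists for B cells, T and NK cells, erythroid cells and megakaryocytes, and stroma and endothelium held 0 calls in limma with all arrays. Their largest differences were -1.03 for Cd22 (limma adjusted p 0.0854), 2.67 for Cd8b1 (0.188), -1.44 for Hba-a1 (0.268) and 1.13 for Pdgfrb (0.499). Pdgfrb was at background in every control, and lymphoma 2 read 10.52 where the other lymphomas read 6.53 to 7.33. At background on every array were 4 of 8 erythroid and megakaryocyte markers and 4 of 8 stroma and endothelium markers. In the fit that leaves out wild type 1, Cd8b1 was 14.7-fold higher (adjusted p 3.3e-05). The T and NK cell list as a whole did not rise. Of its 9 markers, 7 had a negative difference with all arrays, and Cd4 was at background on every array. The list median was -0.15, and -0.21 without wild type 1. In the latter fit the erythroid genes Hba-a1 and Alas2 were 4.03-fold and 2.48-fold lower (adjusted p 0.0212 and 0.0159). In whole preparations, fewer cells of a type and less RNA per cell cannot be told apart.

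Of the 10 genes, 1 rose in lymphoma and 0 fell. The gene that rose was Phgdh, the enzyme that commits 3-phosphoglycerate to serine synthesis, at 2.97-fold. Among all genes 2.09% passed (0.817% higher and 1.27% lower), so that 1 of 10 is too few to set the genes apart as a set. Their median difference was -0.09 on the log2 scale, against 0.06 over all genes. Asns was 2.23-fold higher with an adjusted p of 0.0993, Ddit3 was 2.31-fold lower with an adjusted p of 0.0777, and both failed the threshold while their groups did not overlap. Without wild type 1, 2 of the 10 genes rose (Phgdh and Asns) and 2 fell (Ddit3 and Chac1), where 8.15% of all genes passed, 4.28% higher and 3.87% lower. With all arrays 5 of the 10 differences were positive and 5 negative, so the genes did not move in one direction.

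**Figure D1:**
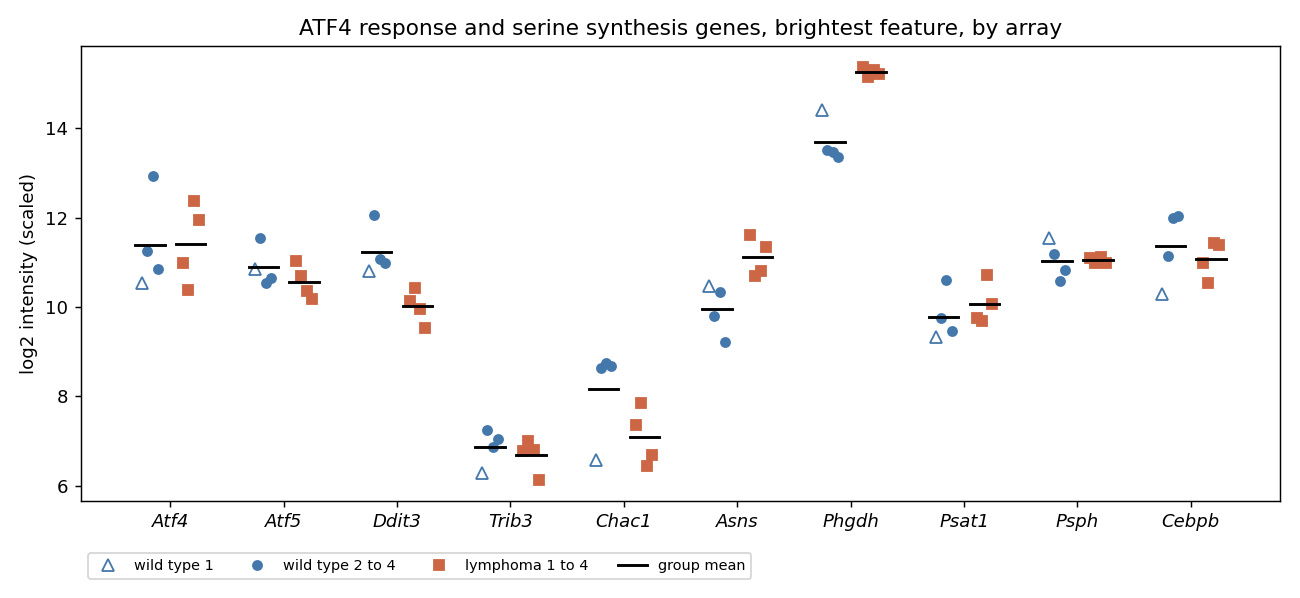
Log2 intensity (scaled, vertical axis) of the brightest feature of each of the 10 genes on the 8 arrays. Triangles are wild type 1, circles the other wild type arrays, squares the lymphoma arrays and bars the mean of each group of 4. The 4 lymphoma arrays lie above all wild type arrays for Phgdh and Asns and below them for Ddit3, while the groups of the other genes overlap.

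Phgdh was measured by 3 features. On the brightest, the wild type values were 14.40, 13.51, 13.48 and 13.37, and the lymphoma values were 15.38, 15.14, 15.30 and 15.22 (arrays 1 to 4 of each group). All 4 lymphoma arrays were above all 4 controls, and wild type 1 was the control closest to them. The log2 difference was 1.57 ± 0.25 (SE, n = 4 per group) with a limma adjusted p of 0.0149. Leaving out wild type 1 gave 1.81 ± 0.20 with an adjusted p of 4.62e-04, a 3.50-fold rise. This feature reached 45.6% to 72.5% of the highest intensity of the array in lymphoma and at most 30.2% in wild type.

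The second Phgdh feature read 13.01, 11.67, 11.43 and 11.59 in wild type and 12.95, 13.01, 14.54 and 13.91 in lymphoma. Wild type 1 lay within the lymphoma range here, so the groups overlapped by that array. The difference was 1.68 ± 0.42 (SE, n = 4) with a limma adjusted p of 0.0758, and 2.04 without wild type 1 with an adjusted p of 0.0069. The third feature read 11.04, 10.35, 9.70 and 9.63 in wild type and 11.24, 11.11, 12.74 and 12.20 in lymphoma, with no overlap. Its difference was 1.64 ± 0.41 (SE, n = 4) with a limma adjusted p of 0.0739, or 1.93 without wild type 1 (adjusted p 0.0132). The 3 features thus gave rises between 2.97-fold and 3.20-fold, of which the rise on the brightest feature passed. The mean of the 3 features rose by 1.63 (adjusted p 0.0350).

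The lymphomas of slide 2 were higher than those of slide 1 on the second and the third Phgdh features. Within slide 1 the differences were 0.64 and 0.48, and within slide 2 they were 2.71 and 2.80. A limma test of the group difference between the slides gave an unadjusted p of 0.00892 and 7.76e-04 and an adjusted p of 0.537 and 0.284, so it was not past the threshold. On the brightest feature the differences were 1.30 and 1.84. The call of the brightest feature ended when some arrays were left out. Leaving out wild type 3, wild type 4, lymphoma 1, lymphoma 3 or lymphoma 4 gave differences of 1.46 to 1.58 with adjusted p values of 0.0534 to 0.0657, while it held without wild type 2 (0.0380) or lymphoma 2 (0.0406).

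**Figure D2:**
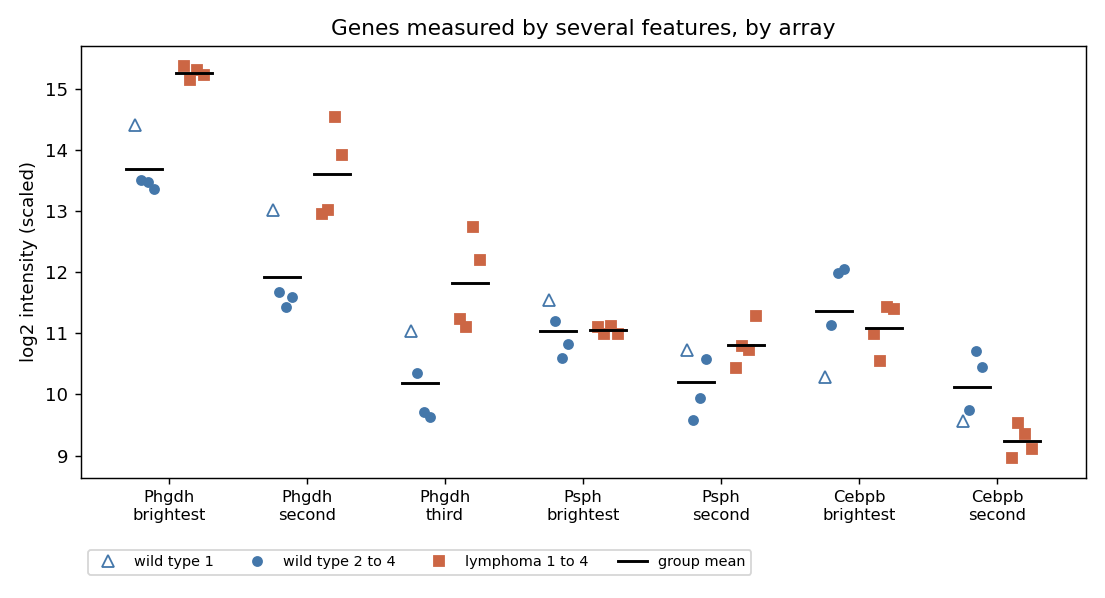
Log2 intensity (scaled, vertical axis) of each feature of Phgdh, Psph and Cebpb on the 8 arrays, ordered within a gene from the brightest. Symbols are as for the plot by gene, and bars are means of groups of 4. All Phgdh features have higher lymphoma means (15.26, 13.60 and 11.82) than wild type means (13.69, 11.93 and 10.18), while the features of Psph and of Cebpb differ among themselves.

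Phgdh is followed in the pathway by Psat1, the aminotransferase, and by Psph, the phosphatase that releases serine. Psat1 read 9.33, 9.76, 10.60 and 9.46 in wild type and 9.76, 9.69, 10.73 and 10.07 in lymphoma. The groups overlapped over most of their range. The difference was 0.27 ± 0.32 (SE, n = 4), with a 95% interval of -0.43 to 0.98 and a limma adjusted p of 0.747, and it was 0.12 without wild type 1. The brightest Psph feature read 11.55, 11.20, 10.59 and 10.83 in wild type and 11.11, 10.99, 11.12 and 10.99 in lymphoma. The lymphoma arrays lay close together inside the wild type range, and the difference was 0.01 ± 0.24 (SE, n = 4; limma adjusted p 0.994; 95% interval -0.51 to 0.53). Its other feature differed by 0.60 ± 0.29 (adjusted p 0.378), with wild type from 9.59 to 10.72 and lymphoma from 10.44 to 11.28. The pathway's entry enzyme therefore passed the test and neither later enzyme did, although a difference between these genes was not tested.

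Asns makes asparagine from aspartate and glutamine. It read 10.46, 9.80, 10.33 and 9.23 in wild type and 11.61, 10.69, 10.81 and 11.33 in lymphoma. Each lymphoma array was above each control, a separation that 9.99% of all genes showed. The difference was 1.16 ± 0.31 (SE, n = 4), with a 95% interval of 0.47 to 1.84 and a limma adjusted p of 0.0993. Leaving out wild type 1 gave 1.33 ± 0.32 (adjusted p 0.0301). It was alike on both slides, at 1.02 within slide 1 and 1.29 within slide 2.

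Among the genes that ATF4 is known to act on through a C/EBP-ATF response element, Asns and Chac1 held the core of that element, TGATGNAA on either strand, upstream of their start in RefSeq promoter windows of assembly GRCm38.p6. The windows are shown because they held the core before the start, whatever the expression of the gene. The group means of these 2 genes differed in opposite directions, and neither difference passed with all arrays. Capitals mark the match, and each run ends at the base before the annotated start. For Asns it spans chr6:7693210-7693459 on the minus strand, and the match TGATGAAA starts 23 bases before the start. For Chac1 it spans chr2:119350992-119351241 on the plus strand, and the match TTGCATCA, which is on the opposite strand, starts 193 bases before the start.
Asns: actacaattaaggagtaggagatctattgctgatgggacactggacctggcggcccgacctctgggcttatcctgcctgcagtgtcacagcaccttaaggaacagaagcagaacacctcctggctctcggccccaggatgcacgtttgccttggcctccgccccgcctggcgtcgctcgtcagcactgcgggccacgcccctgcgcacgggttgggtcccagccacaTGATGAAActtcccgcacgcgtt
Chac1: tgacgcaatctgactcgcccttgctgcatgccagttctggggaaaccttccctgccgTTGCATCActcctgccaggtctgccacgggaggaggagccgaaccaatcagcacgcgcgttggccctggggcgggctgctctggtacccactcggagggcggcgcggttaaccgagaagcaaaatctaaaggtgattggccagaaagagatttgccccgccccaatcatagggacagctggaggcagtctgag
Windows ran from 250 bases before to 50 after each start, and 12 windows covered the 10 genes. The core was found in 3 of the 12, the third being Trib3, where TTACATCA starts at base 15 after the start. It was found in 3.97% of the 32851 windows of all genes. The E-box CACGTG and the ER stress response element (CCAAT, 9 bases of any kind, CCACG), searched on both strands, were found in 0 of the 12, against 7.15% and 0.119% of all windows. Such a match describes letters and does not show binding.

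Chac1 degrades glutathione and rises with ATF4 activity in many cells. It read 6.57, 8.64, 8.76 and 8.68 in wild type and 7.37, 7.85, 6.44 and 6.70 in lymphoma. Wild type 1 was the one control at background, while the 3 other controls lay close together above all lymphomas. Background was bounded on each array by the 95th percentile of the odorant and pheromone receptor features. Chac1 exceeded that bound on 3 wild type and 2 lymphoma arrays, so its fold depends on the background level. With all arrays the difference was -1.07 ± 0.48 (SE, n = 4; limma adjusted p 0.330). Leaving out wild type 1 gave -1.61 ± 0.32 (adjusted p 0.0129), a 3.04-fold fall. Within slide 1, which holds wild type 1, it was 0.00 (adjusted p 0.999). Within slide 2, which lacks that array, it was -2.15 (adjusted p 0.0140).

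Ddit3 encodes CHOP, a bZIP factor that is induced by ATF4 and promotes cell death under lasting stress. It read 10.81, 12.06, 11.07 and 10.98 in wild type and 10.14, 10.44, 9.96 and 9.53 in lymphoma. All lymphoma arrays were below all controls. The difference was -1.21 ± 0.30 (SE, n = 4), with a 95% interval of -1.87 to -0.54 and a limma adjusted p of 0.0777. Leaving out wild type 1 gave -1.35 ± 0.32 (adjusted p 0.0266). The slides gave -1.14 (slide 1, adjusted p 0.708) and -1.28 (slide 2, adjusted p 0.0436). Slide 2 does not hold wild type 1.

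Trib3, a pseudokinase induced downstream of ATF4 and CHOP, lay under the background bound on all 8 arrays. Its values ran from 6.30 to 7.25 in wild type and from 6.13 to 7.01 in lymphoma, and no fold is given for it.

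Atf4 itself read 10.54, 11.25, 12.93 and 10.85 in wild type and 10.98, 10.39, 12.37 and 11.95 in lymphoma. The spread within each group, 1.06 (SD) in wild type and 0.90 in lymphoma, was far larger than the difference of the means. Its wild type SD also exceeded the value of 0.79 under which 90% of all genes lay. The difference was 0.03 ± 0.53 (SE, n = 4), with a 95% interval of -1.13 to 1.19 and a limma adjusted p of 0.988, and it was -0.25 without wild type 1. The interval leaves room for a change of up to about 1 log2 unit in either direction. The arrays of slide 2 were higher than those of slide 1 by 1.24 with the group as a second term (unadjusted p 0.0127, adjusted p 0.359).

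Atf5, a relative of ATF4 that shares its translational control, read 10.85, 11.54, 10.53 and 10.66 in wild type and 11.02, 10.70, 10.36 and 10.18 in lymphoma. The groups overlapped, with a difference of -0.33 ± 0.28 (SE, n = 4; limma adjusted p 0.635). It was -0.35 without wild type 1, and -0.33 within either slide. With the group as a second term, slide 2 differed from slide 1 by -0.60 (limma unadjusted p 0.0191, adjusted p 0.374).

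Cebpb encodes a bZIP factor that can pair with ATF4, and it is abundant in myeloid cells. Its brightest feature read 10.29, 11.14, 11.99 and 12.05 in wild type and 10.99, 10.54, 11.42 and 11.39 in lymphoma. Those groups overlapped, with a difference of -0.28 ± 0.38 (SE, n = 4; limma adjusted p 0.785), or -0.64 in the absence of wild type 1 (adjusted p 0.282). The difference was 0.05 within slide 1 and -0.61 within slide 2. On this feature slide 2 was higher than slide 1 by 0.97 with the group as a second term (limma unadjusted p 0.00316, adjusted p 0.351). The other Cebpb feature read 9.56, 9.75, 10.71 and 10.45 in wild type and 8.96, 9.53, 9.36 and 9.11 in lymphoma. There the lymphomas were below all controls, narrowly so between lymphoma 2 and wild type 1. This difference was -0.88 ± 0.28 (adjusted p 0.165), and -1.06 without wild type 1 (adjusted p 0.0415). The mean of both features differed by -0.58 (adjusted p 0.391).

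Several myeloid markers fell in the same comparison. Mpeg1 fell 2.92-fold (limma adjusted p 0.00802), Fcgr1 2.91-fold (0.0160), C1qa 2.71-fold (0.0373) and Vcam1, a surface molecule of splenic macrophages, 2.61-fold (0.0485), with Lyz2 and C1qb the remaining calls. Other features of Mpeg1, Fcgr1 and Vcam1 differed by -0.05, by -0.70, and by -0.67 and 0.55. The log2 of the summed intensity of the 11 markers ran from 15.10 to 15.82 in wild type and from 13.87 to 14.42 in lymphoma, and Clec4f alone was under the bound on all arrays. Among 10 granulocyte and mast cell markers, S100a8 fell 5.23-fold (adjusted p 0.0133) and was the only call. The median of these markers was -0.54, with 8 negative and 2 positive differences, the latter at most 0.24. The sum of that list ran from 12.93 to 14.19 and from 11.02 to 12.49, with Elane and Ms4a2 under the bound throughout. The part of these cells in the Cebpb values was not tested.

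**Figure D3:**
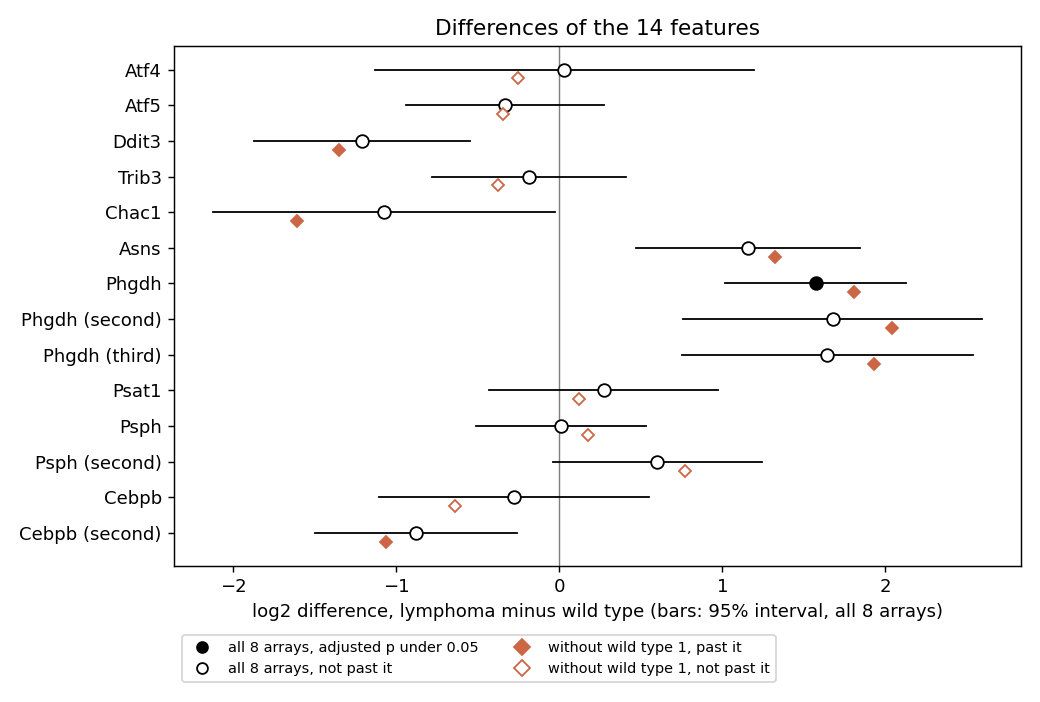
Log2 difference, lymphoma minus wild type (horizontal axis), of the 14 features. Circles with 95% intervals use all 8 arrays and diamonds leave out wild type 1, with filled symbols for an adjusted p under 0.05 in limma. With all arrays the brightest Phgdh feature is the filled circle, and without wild type 1 the filled diamonds are 3 features of Phgdh and 1 each of Asns, Ddit3, Chac1 and Cebpb.

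Over the 14 features, 1 passed with all arrays and 7 without wild type 1, where 1.65% and 6.87% of all features passed. Of the 7, 4 were higher and 3 lower, against 3.63% and 3.25% of all features, and 3 of them read the same gene. The groups did not overlap in 5 features, against 9.25% of all features. Within slide 1 alone limma called 0 of the 14 features and 0 of all features. Within slide 2 alone it called 6 of the 14, 3 higher and 3 lower, against 5.78% of all features (2.99% higher and 2.79% lower). Wild type 1 is on slide 1, so the fit of slide 2 also leaves out that array. It can favour calls in the same way and is not separate from the fit without wild type 1. No slide effect and no difference between slides passed the threshold for any of the 14 features.

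**Figure D4:**
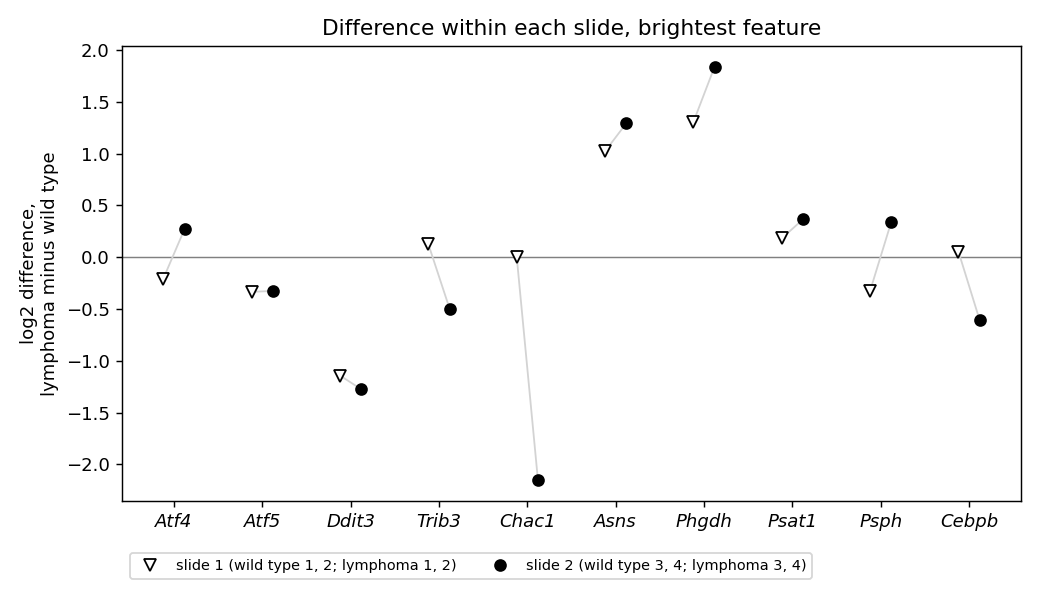
Log2 difference, lymphoma minus wild type (vertical axis), of the brightest feature of each gene within slide 1 (open triangles) and within slide 2 (filled circles), each from 2 arrays against 2. Phgdh, Asns and Ddit3 have the same sign on both slides, while Chac1 is at 0.00 on slide 1 and at -2.15 on slide 2.

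Genes whose profile over the 8 arrays was closest to that of Asns were Srm, Smco4, Zpr1, Aagab and Cd99. Likeness was the root mean square difference of the centered log2 values, from 0.26 to 0.29, among 9543 genes at or above the median brightness. The genes closest to Phgdh were Ece1, Akap1, Trim11, Zfp516 and Srm, at 0.14 to 0.18. Srm, the enzyme that makes spermidine, was in both lists. It read 12.15, 11.40, 11.49 and 10.99 in wild type and 13.26, 12.52, 12.98 and 12.93 in lymphoma, so that the groups did not overlap.

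Upstream of ATF4 stand the eIF2 kinases, the eIF2 and eIF2B subunits and the phosphatase subunits that reverse the phosphorylation. Of 17 such genes measured, 0 passed with all arrays in limma and 2 had groups that did not overlap, a share near the 9.99% of all genes. The gene with the largest difference was Ppp1r15a, which encodes the ATF4-induced phosphatase subunit GADD34. It read 13.19, 13.80, 13.50 and 13.48 in wild type and 12.49, 12.67, 12.64 and 12.75 in lymphoma. All lymphomas were lower, by 0.86 ± 0.21 in the means (SE, n = 4; limma adjusted p 0.0668), and it was the 1 gene of the list that passed without wild type 1 (adjusted p 0.0198). The median of the list was 0.08.

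Among 17 genes, made up of relatives of the C/EBP, ATF and tribbles families and of Chac2, 1 fell and 0 rose. Over all genes the shares were 1.27% and 0.817%. Trib2, a pseudokinase that promotes the degradation of C/EBP alpha, read 10.66, 11.45, 11.81 and 11.87 in wild type and 9.81, 10.13, 9.98 and 9.61 in lymphoma. It was 2.96-fold lower (limma adjusted p 0.0241; without wild type 1, 3.55-fold, adjusted p 8.81e-04), and its other feature differed by -1.48. Atf3, a stress-induced factor and ATF4 target, is named after its values were seen. It read 14.56, 11.70, 13.23 and 13.17 in wild type and 15.04, 15.65, 15.25 and 14.98 in lymphoma, with no overlap and a difference of 2.06 ± 0.47 (SE, n = 4; limma adjusted p 0.0523). Atf3 and Trib2 were the 2 genes of the list that passed without wild type 1 (Atf3 adjusted p 0.00208). In that fit 8.15% of all genes passed.

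Of 30 further genes known as ATF4 targets, 1 fell and 0 rose, against 1.27% and 0.817% of all genes. The median of the list was 0.11. The gene that fell was Herpud1, a component of endoplasmic reticulum associated degradation. It read 13.50, 13.20, 14.22 and 14.03 in wild type and 12.36, 12.70, 12.76 and 12.30 in lymphoma, 2.32-fold lower (limma adjusted p 0.0437; without wild type 1, 0.0184). Of the 30, 17 had a positive and 13 a negative difference, and 5 (Stc2, Vldlr, Cbs, Aldh1l2 and Slc7a11) lay under the background bound on every array. Without wild type 1, 2 rose and 3 fell, against 4.28% and 3.87% of all genes. The rises were the alanine aminotransferase Gpt2 and the death gene Bbc3, and the falls were Herpud1, the stress factor Nupr1 and the autophagy receptor Sqstm1. Vegfa, the angiogenic growth factor, had the largest difference of the list and is named after its values were seen. It read 11.30, 10.47, 6.91 and 11.04 in wild type and 6.70, 6.80, 6.45 and 6.83 in lymphoma. All lymphomas and wild type 3 were at background, so the difference rests on the other controls and no fold is given. It did not pass (limma adjusted p 0.0588, and 0.0528 without wild type 1).

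Enzymes that use serine showed no call with all arrays in limma. Of 18 genes of serine, glycine and one-carbon metabolism, 0 passed, 14 had a positive difference and the median was 0.30. The largest difference was that of Sfxn1, a mitochondrial serine transporter. It read 13.49, 10.54, 11.50 and 11.69 in wild type and 13.35, 13.16, 12.82 and 12.95 in lymphoma. The high control was wild type 1. The difference was 1.26 ± 0.48 (SE, n = 4; limma adjusted p 0.248), and 1.83 without that array (adjusted p 0.00418). Its other features differed by -0.39 and 1.37. Without wild type 1, 3 of the 18 rose, namely Sfxn1, Gcsh and Tyms, against 4.28% of all genes. Within slide 2 alone, which also lacks that array, 5 rose, against 3.47% of all genes.

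Among 13 genes of asparagine, aspartate, glutamine and proline metabolism, 1 rose and 0 fell, against 0.817% and 1.27% of all genes. The list median was 0.27. Prodh, the first enzyme of proline breakdown, read 10.47, 8.43, 7.97 and 8.29 in wild type and 11.82, 11.36, 10.59 and 10.86 in lymphoma. It was 5.16-fold higher (limma adjusted p 0.0366; without wild type 1, 7.61-fold, adjusted p 3.02e-04). Ass1, argininosuccinate synthase, is named after its values were seen. It read 12.98, 10.09, 9.24 and 9.75 in wild type and 14.34, 13.20, 13.32 and 12.99 in lymphoma, a difference of 2.95 ± 0.66 (SE, n = 4) with a limma adjusted p of 0.0508. In both genes wild type 1 was above the other controls and below all lymphomas. Without it 3 rose, namely Prodh, Ass1 and Gpt2, against 4.28% of all genes.

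Of 11 genes of glutathione synthesis and turnover, 1 fell, against 1.27% of all genes. Ggt5, which cleaves the gamma-glutamyl bond, read 7.61, 8.65, 8.35 and 8.69 in wild type and 6.62, 6.89, 7.24 and 6.90 in lymphoma. It was 2.66-fold lower by these values (limma adjusted p 0.0292; without wild type 1, 0.00174), but 1 lymphoma array of the 4 was above the background bound, and its other feature differed by -0.05. Gclc and Gpx1 also passed without wild type 1, both higher, where 4.28% of all genes rose. Of 18 cytosolic tRNA synthetases, 0 passed in limma with all arrays, 15 had a positive difference and the median was 0.23. Cars had the largest difference, 0.84 ± 0.34 (SE, n = 4; limma adjusted p 0.271). Its other features differed by -0.38 and -0.09. Cars and Hars passed without wild type 1, both higher, against the same 4.28% of all genes.

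The XBP1 and ATF6 arm, the other branch of the unfolded protein response, held 0 calls among 20 genes with all arrays in limma and 0 without wild type 1. Of the 20, 17 had a negative difference, and the median was -0.20. Calr, a chaperone of the endoplasmic reticulum, had the largest, -0.85 ± 0.41 (SE, n = 4; limma adjusted p 0.378). All 7 plasma cell markers, whose cells are rich in these chaperones, also had a negative difference. Of these, Jchain fell 9.07-fold (limma adjusted p 0.0403), Slpi 6.36-fold (0.0379), Tnfrsf17 3.34-fold (0.0306) and Sdc1 3.33-fold (0.0296). The other feature of Jchain differed by -2.37 and that of Slpi by 0.14. The log2 of their summed intensity, over 7 markers, ran from 14.64 to 16.42 in wild type and from 12.67 to 14.35 in lymphoma. None of the 7 was under the bound on all arrays, and their part in the chaperone values was not tested.

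The 4 pathway genes that passed did so by a small margin. Leaving out any 1 array other than wild type 1 ended the calls of Prodh and Ggt5. The call of Trib2 ended without wild type 2, 3 or 4 or lymphoma 1, 3 or 4, and that of Herpud1 without wild type 3 or 4 or any lymphoma array. The limma adjusted p then reached at most 0.0925 for Trib2, 0.149 for Herpud1, 0.125 for Prodh and 0.105 for Ggt5, and all 4 genes kept their direction.

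**Figure D5:**
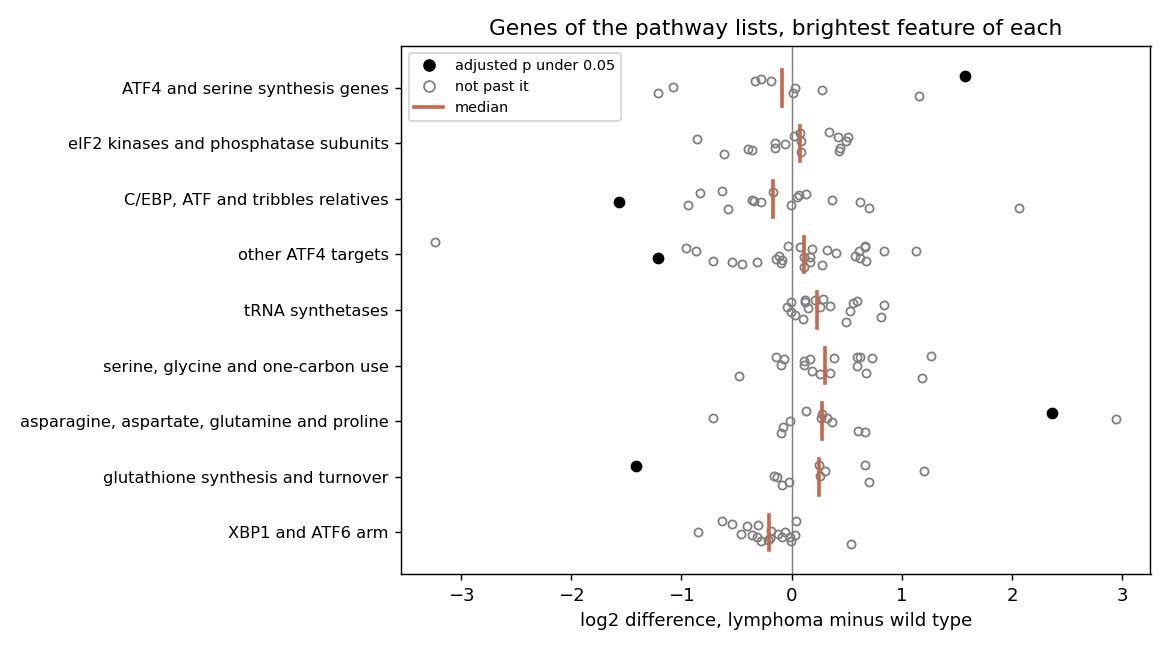
Log2 difference, lymphoma minus wild type (horizontal axis), of the brightest feature of each gene in the 10 genes described and in 8 pathway lists. Filled points passed an adjusted p of 0.05 in limma with all 8 arrays, open points did not, and bars are medians. The list medians run from -0.20 to 0.30, and 1 gene passed in each of 5 rows of the plot.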

How the data were processed

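The authors deposited log2 intensities of 45220 features on 8 arrays. Per the labels, 0.5 µg of polyA RNA per array was labelled with Cy3. The sources used here name no scanner, background correction or normalization. Over features with a listed gene, 75th percentiles spanned 0.215 between arrays and were made equal. The platform annotation names 33709 features, 33653 with 1 symbol and 56 with several, which were not named. RefSeq (GRCm38.p6) changed 0 symbols. No dim feature was removed.

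Groups were compared with limma 3.58.1 in R 4.3.3 (lmFit, eBayes, two-sided, group as the only term, Benjamini-Hochberg over all 33709 features), tested on simulated data. SE and intervals are from limma. The labels number the mice and say no more of how separate they were, so p values measure the spread between these samples. The background bound was the 95th percentile of 1113 odorant and pheromone receptor features (Olfr and Vmn genes), between 7.17 and 7.45. The members and lists were chosen with earlier results of these data known. Within each list, up to 4 called genes are named, or the gene with the largest difference where none was called. Replicate numbers were not used to pair the arrays in the main comparison. Deviations of arrays with the same number correlated at 0.18, -0.04, 0.13 and -0.02. Those of arrays with different numbers correlated at -0.15 to 0.08. The highest values, 0.18 and 0.13, were thus of arrays with the same number, which were always on the same slide. Arrays with different numbers on the same slide correlated at -0.03, 0.01, -0.02 and 0.07. Whether the numbers pair the arrays was not settled.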

Additional observations from a re-analysis of the deposited data

Results flagged for a closer look

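Of 70 groups of 4 arrays looked at, 5 held an array far from the other 3, and chance gives about 1 in 20. For Chac1, wild type 1 read 6.57 and the other controls 8.64 to 8.76. For the brightest feature of Phgdh, wild type 1 read 14.40 and the others 13.37 to 13.51, and for its second feature wild type 1 read 13.01 and the others 11.43 to 11.67. Cd8b1, a T cell marker and the gene with the largest difference in that list, read 13.27 in wild type 1, 8.26 to 8.59 in the other controls and 11.70 to 12.88 in lymphoma. Sdc1 read 6.77 in lymphoma 1 and 7.995 to 8.174 in the other lymphomas. In 4 of the 5 the array apart was wild type 1.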

How the results depend on the processing

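The count of 557 called features was 2128 with array weights, 1949 within slide 2 alone and 0 within slide 1 alone, and from 84 to 2317 when 1 array was left out. It stayed within 1.5 times under 9 other settings. Of the 14 features, 1 was called in the main comparison, 3 with trend and robust eBayes (all Phgdh), 6 with array weights, 6 within slide 2 alone, 0 within slide 1 alone, and 0 to 7 when 1 array was left out. With the replicate block 2 were called, Phgdh and Ddit3 (-1.21, adjusted p 0.0393), and no other call of the 14 changed. A count over features could not be made from the mean of a gene's features. The difference of Atf4 turned to -0.041 with the scaling as deposited, -0.17 with array weights, -0.21 within slide 1 and, without 1 array, to -0.25, -0.02, -0.15, -0.29 and -0.14 (wild type 1, 2 and 4, lymphoma 3 and 4), with 0.54 at the other end. That of Psph turned to -0.064 as deposited and -0.32 within slide 1. It was -0.14, -0.06, -0.01 and -0.01 without wild type 3, wild type 4, lymphoma 1 and lymphoma 3. At the other end it was 0.34 within slide 2, and 0.18 when 1 array was left out. Within slide 1 Trib3 gave 0.12, Chac1 0.0027 and Cebpb 0.053. Phgdh, Asns, Ddit3, Atf5 and Psat1 kept their direction in all 21 alternatives. The cause of these changes was not tested. The folds of Chac1 and Ggt5 depend on the background level, and Trib3 lay under the bound throughout.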
